A study of Arabidopsis thaliana with 8 samples.

Results

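The 39 genes described here encode the core abscisic acid (ABA) signalling pathway of *Arabidopsis thaliana* and the enzymes that inactivate the hormone. They were taken as a list of loci that no measured value defines, but the list was chosen with earlier results of these data known. It holds 14 PYR/PYL receptors, 9 clade A protein phosphatases 2C (PP2Cs), 3 SnRK2 kinases, 9 group A bZIP transcription factors and 4 CYP707A hydroxylases. The TAIR10.1 annotation has 27444 protein-coding genes. All 39 loci were found in the annotation. The study asked where the flowering regulator CONSTANS (CO) is recruited to chromatin and whether ABA production affects that recruitment. Chromatin came from 5 g of whole seedlings per genotype and replicate, grown in long days. Both genotypes were in the Col-0 background and carried the same transgene, *SUC2::CO:CIT*, a CO fusion with the fluorescent protein CITRINE driven by the promoter of *SUC2*, which is active in phloem companion cells. One genotype had the wild-type *ABA1* gene and the other carried *aba1-6*, a mutation that impairs ABA synthesis. Both derived from 1 transgenic line, the mutant genotype being its derivative, and seedlings without the transgene were not analysed here. Fusion protein was captured with GFP-Trap nanobodies, and each genotype gave 2 ChIP libraries and 2 input libraries. Since the fusion is made in companion cells and whole seedlings were used, occupancy refers to the cells that express the transgene, whichever cells express the 39 genes.

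ABA binds to soluble PYR/PYL receptors, and the complex then inhibits clade A PP2Cs. These phosphatases otherwise keep SnRK2 kinases inactive, so that hormone binding frees the kinases to phosphorylate group A bZIP factors, which recognise ABA-responsive elements with an ACGTG core. CYP707A enzymes hydroxylate ABA and so end the signal. CO is a B-box protein with a CCT domain that associates with NF-Y subunits, whose classical target is the CCAAT box, and binds TGTG-containing elements in the promoter of the florigen gene *FT*.

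The peak lists of the 2 *SUC2::CO:CIT* libraries held 21054 and 22724 peaks, and those of the 2 *SUC2::CO:CIT aba1-6* libraries held 168 and 258. Depth differed between the genotypes in the same direction. The genome-wide background was 11.2 and 10.8 fragments in the libraries with functional *ABA1* against 3.57 and 0.774 in the mutant ones, and the lowest summit of any called peak had 23, 22, 11 and 5 fragments in the same order. A gene was counted as having a peak where at least 1 bp of a peak fell in its body or in the 3000 bp upstream of its start, and as having a shared peak where peaks of both *SUC2::CO:CIT* libraries in that window overlapped. Fold enrichment compares the fragments counted at a summit with the background set for that summit, as a ratio with 1 added to each. At nearly all of the strongest shared peaks described below, this background was the genome-wide value of the library and not a higher local one.

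Sequences are shown around 4 upstream summits, one per gene, whose peaks had −log10 q of at least 10 in both *SUC2::CO:CIT* libraries. They are reference sequences of TAIR10.1, 100 bases around the summit of replicate 1, on the coding strand of each gene. The intervals are chr4:9928135-9928234 (plus strand) for *PYR1*, chr4:13222465-13222564 (minus strand) for *ABI1*, chr3:16082559-16082658 (minus strand) for *DPBF2* and chr1:18398406-18398505 (plus strand) for *ABF1*. All 4 were intergenic, and capitals mark TGTG or CACA, ACGTG or CACGT, and CCAAT or ATTGG.
PYR1: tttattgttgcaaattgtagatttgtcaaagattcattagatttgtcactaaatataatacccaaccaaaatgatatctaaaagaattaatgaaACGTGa
ABI1: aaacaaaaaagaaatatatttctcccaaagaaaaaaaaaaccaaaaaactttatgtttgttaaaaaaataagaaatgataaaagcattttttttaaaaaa
DPBF2: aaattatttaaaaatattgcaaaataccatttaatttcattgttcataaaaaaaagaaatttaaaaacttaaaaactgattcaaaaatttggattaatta
ABF1: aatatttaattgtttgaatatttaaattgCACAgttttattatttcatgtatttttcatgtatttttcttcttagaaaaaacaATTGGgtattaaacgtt
G and C made up 25%, 16%, 14% and 19% of these bases. The words occurred at *PYR1*, with 1 ACGTG near the end of the interval, and at *ABF1*, with 1 CACA and 1 ATTGG. None of the words was present in the intervals of *ABI1* and *DPBF2*.

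CO:CIT peaks were found at every step of the pathway in *SUC2::CO:CIT*. Of the 39 genes, 27 (69.2%) had a peak in replicate 1 and 25 (64.1%) in replicate 2, where 55.4% and 58.5% of all protein-coding genes had one. Peaks were present in both libraries at 23 genes, and at 20 of these, or 51.3% of the 39, they overlapped. The share of all protein-coding genes with a shared peak was 47.5%, so the pathway as a whole stood close to the background. A further 9 genes had peaks that were not shared and 10 had no peak in either library. The windows of the 39 genes had a median length of 5384 bp, against 5078 bp for all genes. By step, shared peaks were found at 6 of 14 receptors (42.9%), 4 of 9 PP2Cs (44.4%), 3 of 3 SnRK2s (100%), 4 of 9 bZIPs (44.4%) and 3 of 4 CYP707As (75%).

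**Figure D1:**
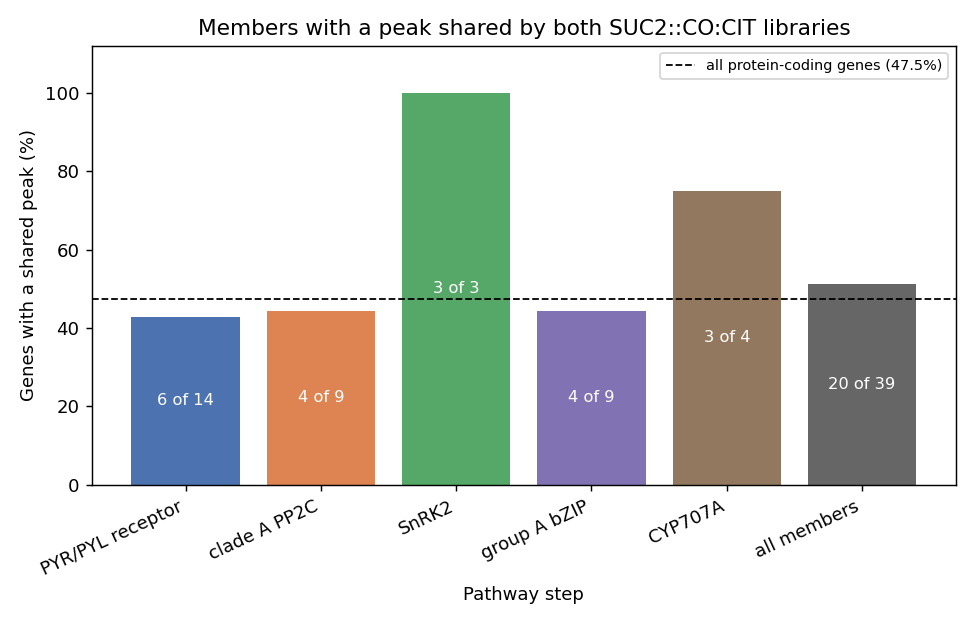
Share of genes at which peaks of both SUC2::CO:CIT libraries overlapped (vertical axis, %), by pathway step (horizontal axis); each bar holds its number of genes, and the dashed line is the share of all protein-coding genes, 47.5%. Receptors, PP2Cs and bZIPs lie just under the line, and the small SnRK2 and CYP707A groups lie above it.

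The receptors held 13 of the 34 pairs of a gene and a shared peak, and 10 of these belonged to *PYR1*, *PYL1* and *PYL2*. *PYR1* (AT4G17870), the receptor first identified through the synthetic agonist pyrabactin, had 3 shared peaks, with replicate 1 summits at −1846, −402 and 1122 bp from its start. The strongest of these had fold enrichments of 4.60 and 4.89 in the respective libraries (4.74 ± 0.21, mean ± SD, n = 2), with 55 and 64 fragments at the summit. Its −log10 q was 17.9 and 21.9, and it ranked 1430 of 21054 and 563 of 22724 peaks. The replicates differed by little in fold enrichment at this site, but their summits were 119 bp apart. The ACGTG shown above lay in the 100 bp around the summit of replicate 1 and not in those around that of replicate 2. *PYL1* (AT5G46790) also had 3 shared peaks, at −1302, −23 and 1473 bp in replicate 1. Its strongest peak lay just past the end of the gene, with 4.60 and 3.63 (4.12 ± 0.68). *PYL2* (AT2G26040) had 4, more than any other of the 39 genes, at −2522, −1149, −197 and 950 bp. The most distal one was the strongest, with 5.34 and 4.90 (5.12 ± 0.31) and −log10 q of 24.0 and 19.7, and it ranked 456 and 866. It is nearer to the start of another gene, AT2G26050, at 1316 bp, so that its assignment to *PYL2* rests on the window alone.

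The other receptors had fewer and weaker peaks. *PYL5* (AT5G05440) had 1 shared peak at −174 and −212 bp, with fold enrichments of 3.53 and 3.38. *PYL11* (AT5G45860) and *PYL12* (AT5G45870) are neighbours and share 1 peak of replicate 1, with a fold enrichment of 2.68, that lies between them. In replicate 2 this broad peak of 928 bp was matched by separate peaks of 2.54 and 2.03. The last ranked 22632 of 22724, so *PYL12* rested on one of the weakest peaks of that list. Peaks in a single library or without overlap were found at *PYL6* (AT2G40330), with 3.45 in replicate 1, at *PYL9* (AT1G01360), with 2.13 and 3.12 in replicate 1, and at *PYL13* (AT4G18620), with 2.55 in replicate 1 and 2.01 in replicate 2 at another position. Both *PYL13* summits lay in an untranslated exon of the adjacent *LSH9*. No peak was called at *PYL3* (AT1G73000), *PYL4* (AT2G38310), *PYL7* (AT4G01026), *PYL8* (AT5G53160) or *PYL10* (AT4G27920). Receptor genes thus spanned the full range, from 4 shared peaks to none.

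**Figure D2:**
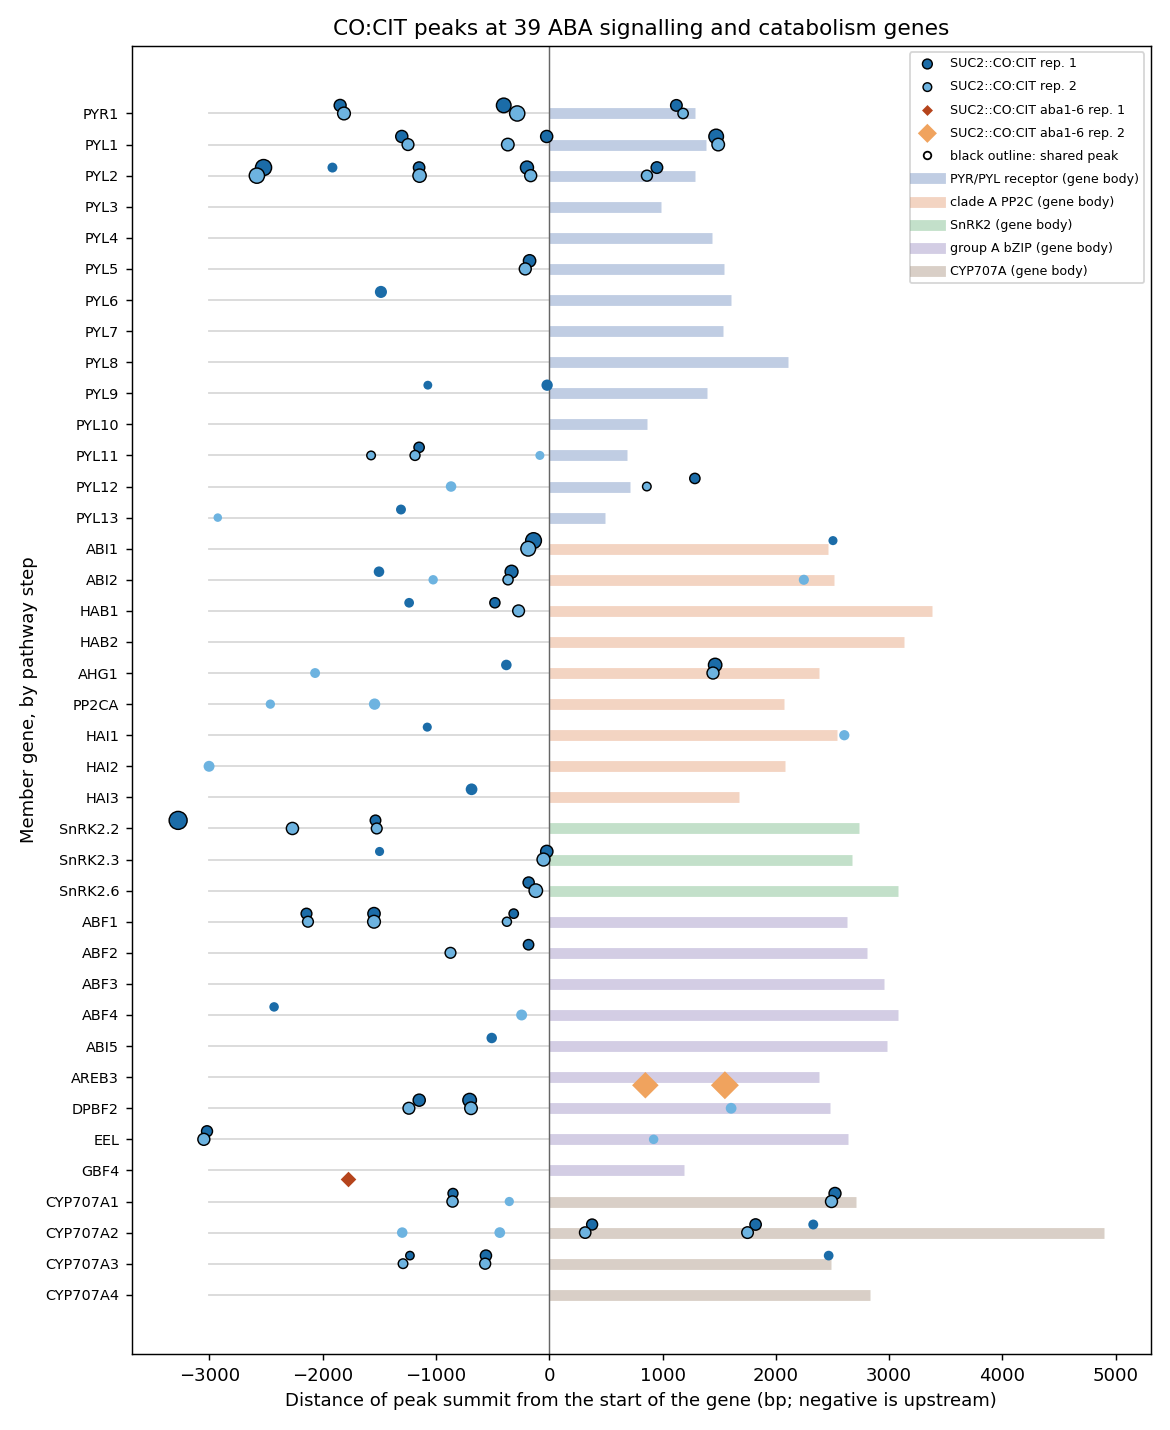
Peak summits at the 39 genes, one row per gene in order of pathway step, by distance from the start of the gene (horizontal axis, bp); coloured bars are gene bodies and grey lines the 3000 bp upstream. Larger markers have a higher fold enrichment and black outlines mark shared peaks. PYL2 has 4 shared peaks and PYR1, PYL1 and ABF1 have 3 each, and the only SUC2::CO:CIT aba1-6 peaks are those at AREB3 and GBF4.

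Among the PP2Cs, the co-receptor gene *ABI1* (AT4G26080), whose dominant mutation makes plants insensitive to ABA, had the strongest shared peak. It lay in the proximal promoter, at −139 and −186 bp in the 2 libraries, with fold enrichments of 5.17 and 4.65 (4.91 ± 0.37, SD, n = 2), −log10 q of 22.6 and 17.7, and ranks of 596 and 1380. Its close homologue *ABI2* (AT5G57050) had a shared peak at a similar place, −333 and −364 bp, with 3.78 and 2.62. *HAB1* (AT1G72770) had one at −480 and −271 bp, with 2.63 and 3.30. Which of these replicates was higher therefore changed from gene to gene. *AHG1* (AT5G51760), a phosphatase of seeds that escapes inhibition by the receptors, differed in that its shared peak was in an intron, at 1464 and 1445 bp, with 4.02 and 3.38. Peaks without overlap were found at *PP2CA* (AT3G11410), with 3.13 and 2.31 in replicate 2, at *HAI1* (AT5G59220), with 2.22 in replicate 1 and 2.68 in replicate 2, at *HAI2* (AT1G07430), with 2.96 in replicate 2, and at *HAI3* (AT2G29380), with 3.28 in replicate 1. The *HAI2* summit, at −3003 bp, lay outside the window and nearer to the start of AT1G07440. The *HAI1* summit of replicate 2 lay past the end of the gene and nearer to the start of AT5G59210. The HAI phosphatases are known for strong induction by ABA. *HAB2* (AT1G17550), the sister gene of *HAB1*, had no peak.

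All 3 SnRK2 genes of the ABA-activated subclass had a shared peak. *SnRK2.3* (AT5G66880) and *SnRK2.6* (AT4G33950), the latter encoding the kinase OST1 that closes stomata, had theirs close to the start. At *SnRK2.3* the summits were at −22 and −51 bp, with 3.53 and 3.80 (3.67 ± 0.19, SD, n = 2), and at *SnRK2.6* they were at −182 and −119 bp, with 3.04 and 4.06 (3.55 ± 0.72). *SnRK2.2* (AT3G50500), which acts with *SnRK2.3* in germination and root growth, had the highest single value of the 39 genes in the *SUC2::CO:CIT* libraries, 6.32 in replicate 1, against 3.46 in replicate 2 (4.89 ± 2.02). This peak was 1639 bp wide in replicate 1, with its summit at −3276 bp, outside the window and 504 bp from the start of AT3G50520, and the summit of replicate 2 was 1009 bp away. The libraries thus shared a region there but not a summit. A second shared peak, at −1534 and −1523 bp with 2.79 and 2.87, lay in an intron of *LBD28* (AT3G50510). Neither peak of *SnRK2.2* was nearest to its own start.

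Among the bZIP genes, *DPBF2* (AT3G44460), also known as bZIP67 and active in seeds, had 2 shared peaks, the stronger at −703 and −691 bp with 4.11 and 3.63 (3.87 ± 0.33, SD, n = 2). *ABF1* (AT1G49720) had 3 shared peaks, at −2143, −1547 and −314 bp in replicate 1. The summit of the strongest fell on the same base in both libraries, −1547 bp, with 3.53 and 3.72 (3.62 ± 0.13). It was nearer to the start of another gene, AT1G49715, at 1002 bp, and so was the replicate 1 summit at −2143 bp, at 406 bp. *ABF2* (AT1G45249), known as AREB1, had 1 shared peak, with summits at −183 and −872 bp and 2.71 and 2.87. It was 1276 bp wide in replicate 1 and 390 bp in replicate 2, where it did not reach the replicate 1 summit. *EEL* (AT2G41070), a bZIP of the embryo that competes with ABI5, had one that only reached into the window, with 2.96 and 3.38. Its summits, at −3021 and −3049 bp, lay outside the window, that of replicate 1 being 248 bp from the start of AT2G41050. Peaks without overlap were found at *ABF4* (AT3G19290), with 2.38 and 2.96 at distant positions in replicates 1 and 2, and at *ABI5* (AT2G36270), with 2.76 in replicate 1. *ABF3* (AT4G34000), *AREB3* (AT3G56850) and *GBF4* (AT1G03970) had no peak in *SUC2::CO:CIT*. ABF2, ABF3 and ABF4 are master factors of the drought response in vegetative tissue.

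The strongest shared peaks of the hydroxylase genes differed little between replicates, and their weaker ones differed more. *CYP707A1* (AT4G19230) had 2, at −850 bp with 2.55 and 3.04 and, the stronger, at 2522 bp in an untranslated exon with 3.37 and 3.38. *CYP707A2* (AT2G29090), which lowers ABA during seed imbibition, had 2 within introns, at 378 and 1821 bp, with 3.12 and 3.21 for the latter. *CYP707A3* (AT5G45340) had 2 upstream, with 3.04 and 2.96 for the one at −559 bp and 1.95 and 2.401 for the one at −1230 bp, the former being the lowest replicate 1 value of the 33 distinct shared peaks. *CYP707A4* (AT3G19270) had none.

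**Figure D3:**
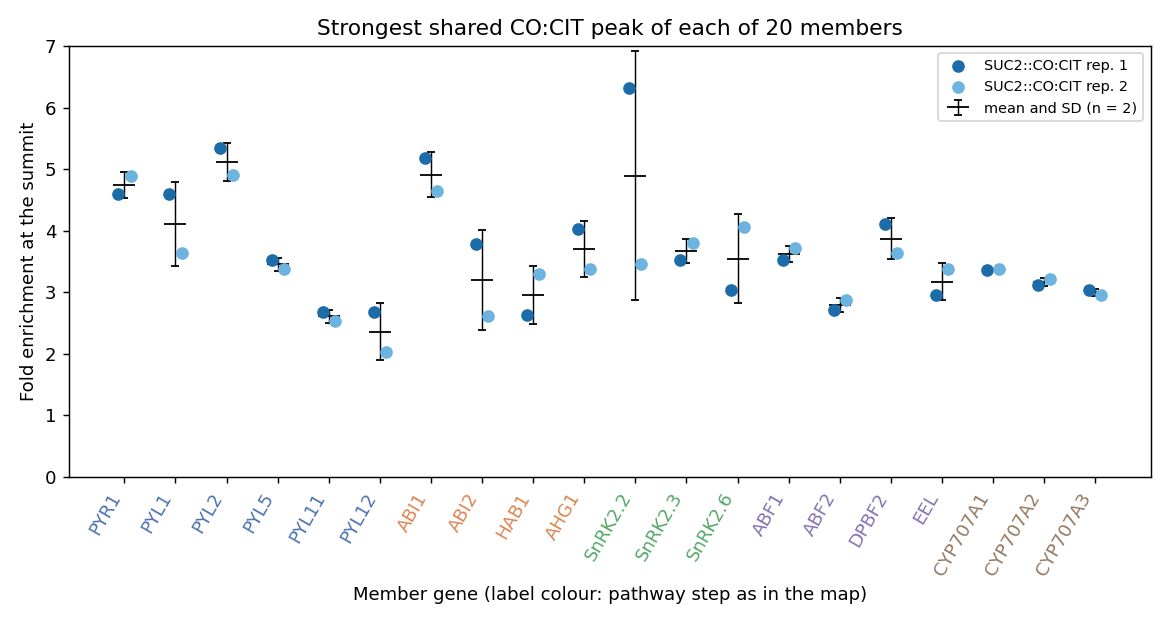
Fold enrichment (vertical axis, linear from 0) of the strongest shared peak of each of 20 genes (horizontal axis, in order of pathway step); points are the 2 SUC2::CO:CIT libraries, with bars for the mean and SD (n = 2). The replicates lie close together at most genes and furthest apart at SnRK2.2, at 6.32 and 3.46.

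Over the 20 genes, the strongest shared peak had a median fold enrichment of 3.53 in replicate 1 (2.63 to 6.32) and 3.38 in replicate 2 (2.03 to 4.90), and replicate 1 was the higher at 11. The SD between replicates had a median of 0.304 and exceeded the distance between most neighbours in the order of genes. The 4 highest means were those of *PYL2*, *ABI1*, *SnRK2.2* and *PYR1*, and each neighbouring pair in this order overlapped in its replicate values. Across genes, which are not replicates and share both libraries, the replicates had a Pearson r of 0.61, and of 0.77 without *SnRK2.2*. Summits of the 2 libraries were a median of 37 bp apart and within 100 bp at 15 of 20 genes. In rank, these peaks stood at a median of 29.8% and 35.2% of the way down the lists, with ranges of 0.470% to 79.5% and 2.48% to 99.6%. The 33 distinct shared peaks at the 39 genes had a median fold enrichment of 3.37 in replicate 1, against 3.28 over all 16861 shared peaks. Peaks with −log10 q of at least 10 in both libraries were shared at 7 of the 39 genes (17.9%), namely *PYR1*, *PYL1*, *PYL2*, *ABI1*, *SnRK2.3*, *ABF1* and *DPBF2*, against 16.7% of all genes.

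Most shared peaks had a summit upstream of the start, and the windows themselves take in 3000 bp upstream. Summit positions are given without the matching counts over all shared peaks. Of the 34 pairs of a gene and a shared peak, 26 had a summit upstream of the start in replicate 1, 11 of them within 500 bp, 3 over 500 and up to 1000 bp and 12 beyond 1000 bp, and 8 had one at or downstream of the start. The summit was intergenic in 27 pairs, in an intron in 4 and in an untranslated exon in 3, and in 26 pairs the nearest protein-coding start was that of the listed gene. Counting only the 3000 bp upstream, 17 of 39 genes (43.6%) had a shared peak, against 43.9% of all genes. With the body and 1000 bp upstream they were 18 (46.2%), against 34.4%. In the gene body alone they were 10 (25.6%), against 11.5%. These 10 were *PYR1*, *PYL1*, *PYL2*, *PYL12*, *ABI1*, *AHG1*, *SnRK2.3*, *SnRK2.6*, *CYP707A1* and *CYP707A2*. At *ABI1*, *SnRK2.3* and *SnRK2.6* the shared peak only reached into the body from a summit upstream. At *PYL1* shared peaks reached in from summits on both sides of the body, and at *PYL12* from past its end.

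The shared peaks lay in DNA of low GC content. In the 200 bp around the summit of replicate 1, GC made up between 15% and 27% (median 21%) at the 33 peaks, and 29 of them (87.9%) were below 25%. Over all 16861 shared peaks the median was also 21% and 85.0% were below 25%. The AT-richest 200 bp stretch of each gene's window, a measure devised after values had been seen, had a median GC content of 18% (9% to 25%) at the 20 genes with a shared peak and 22.5% (16% to 30%) at the other 19. Over all protein-coding genes the medians were 18% and 24.5%. Of the 32 genes whose window fell below 25% somewhere, 19 (59.4%) had a shared peak, and of the 7 that did not, 1 did (14.3%). The exception was *EEL*, whose peak reached beyond the window. The corresponding shares of all genes were 63.0% of 20259 and 3.58% of 7185. *PYL3*, *PYL7*, *PYL10*, *HAB2* and *AREB3* thus had neither such a stretch nor a peak in *SUC2::CO:CIT*, whereas *PYL8*, at 16%, and *CYP707A4*, at 18.5%, had a stretch as AT-rich as those of genes with a shared peak, and no peak. Whether base composition affected the recovery of fragments was not tested.

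**Figure D4:**
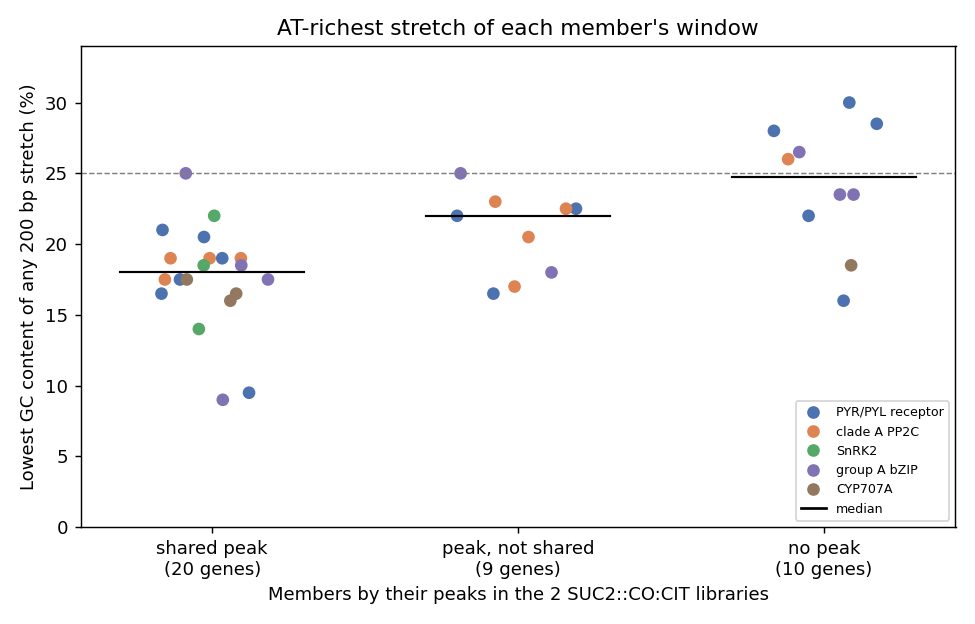
Lowest GC content of any 200 bp stretch in the body and 3000 bp upstream (vertical axis, %) of the 39 genes, grouped by their peaks in SUC2::CO:CIT (horizontal axis); points are genes coloured by pathway step, black lines are medians and the dashed line is 25%. Genes with a shared peak lie at or under 25%, with a median of 18%, and genes without any peak have a median of 24.75%.

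Short words linked to CO or to ABA were counted on both strands in the 100 bp around the summit of replicate 1. TGTG or CACA was present at 9 of the 33 shared peaks (27.3%), against 33.9% of all shared peaks, and CCAAT or ATTGG at 5 (15.2%), against 13.5%. The ABA-responsive core, ACGTG or CACGT, was present at 4 (12.1%), against 2.78%. These were the peaks of *PYR1* at −402 bp, *PYL1* at −23 bp, *HAB1* at −480 bp and *CYP707A3* at −1230 bp. Of the 20 strongest shared peaks alone, 2 held ACGTG or CACGT around the summit of replicate 1, those of *PYR1* and *HAB1*. None did around the summits of replicate 2, which were shifted by 119 and 209 bp at these genes. The peaks of *PYL1* at −23 bp and *CYP707A3* at −1230 bp were not among the 20. A word near a summit is a description of the sequence only.

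In *SUC2::CO:CIT aba1-6*, peaks were nearly absent from the pathway. One of the 39 genes had a peak in each library, *GBF4* in replicate 1 and *AREB3* in replicate 2, where 0.765% and 1.24% of all protein-coding genes had one. None of the 20 genes with a shared peak in *SUC2::CO:CIT* had a peak in either library. The mean number of the 39 genes with a peak was 26 ± 1.41 with functional *ABA1* and 1 ± 0 in the mutant (SD, n = 2 each), a difference of 25. The groups did not overlap, but an exact two-sided permutation test of 2 libraries against 2 gave p = 0.333, the smallest it allows.

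Depth limited what these libraries could show. Scaled to the depth of the first mutant library (*aba1-6*, replicate 1), the strongest shared peaks would have between 9.90 and 24.3 fragments (median 13.4) with the enrichment of *SUC2::CO:CIT* replicate 1, and between 7.58 and 21.1 (median 12.8) with that of replicate 2, where a call needed 11 or 12. The Poisson chance of a call, summed over the 20 genes, came to 14.8 and 14.2 genes, and none was called. For *PYL2* and *ABI1* the expected fragments were well above the requirement, whereas *PYL11*, *PYL12* and *ABF2* would have fallen under it. At the depth of replicate 2, between 2.15 and 5.26 fragments (1.64 to 4.57 from the other library) would be expected where 5 were needed, and the chances summed to 4.23 and 3.60 genes. *SnRK2.2*, with its replicate 1 value, was the only one of the 20 genes whose expected fragments reached 5 there. The calculation assumes equal enrichment and takes the measured fragments of called peaks as their true rates, which overstates the chance. The depth of the library and its genotype cannot be told apart in the number of peaks of these 4 libraries.

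**Figure D5:**
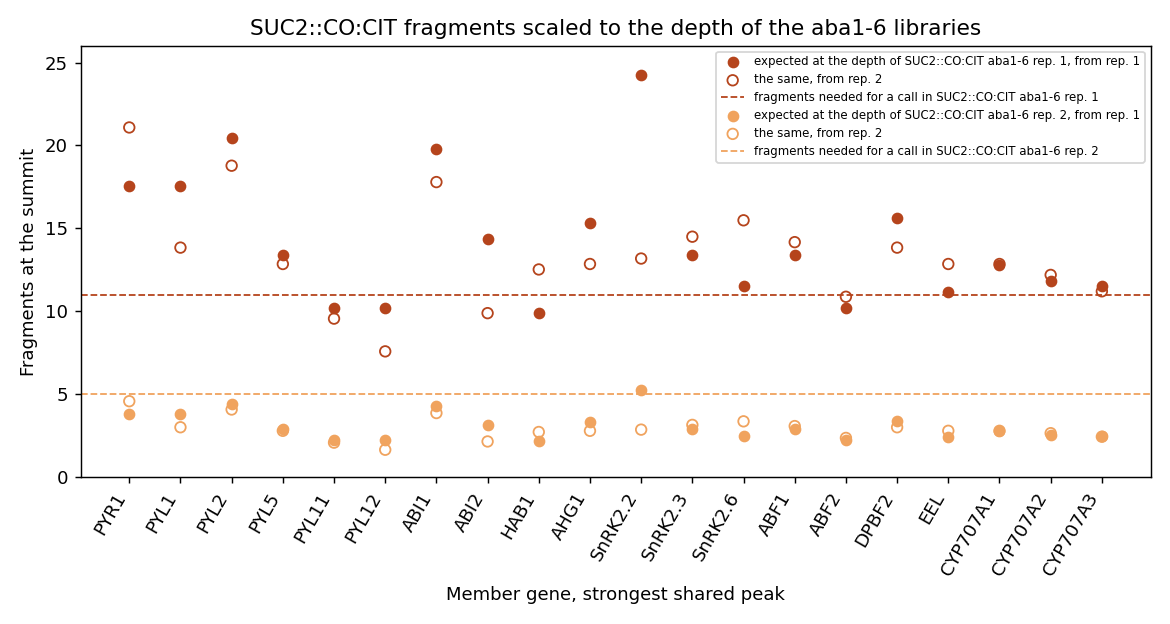
Fragments expected at the strongest shared peak of each of 20 genes (horizontal axis) after scaling to the depth of each mutant library (vertical axis, linear from 0); filled and open points start from replicates 1 and 2 of SUC2::CO:CIT, and dashed lines are the 11 and 5 fragments needed for a call. Most points lie above the line for replicate 1 and below it for replicate 2.

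The peaks at *AREB3*, a bZIP factor also known as DPBF3, were unlike the *SUC2::CO:CIT* peaks of the other genes. They were present in replicate 2 of *SUC2::CO:CIT aba1-6* and in none of the other 3 libraries, and they lay inside the gene. The first, at chr3:21046635-21047423, covered 342 bp of coding sequence and 447 bp of intron, with a fold enrichment of 7.35, a −log10 q of 7.55 and 13 fragments over a background of 0.906. The second, at chr3:21047623-21047866, was 244 bp wide and wholly coding, with 6.77, a −log10 q of 6.00 and 11 fragments over 0.774. They ranked 22 and 25 of 258 peaks. A place inside a gene was common in that library, where 189 of the 258 peaks were in protein-coding gene bodies, and 10 of 28 at −log10 q of at least 5. In *aba1-6* replicate 1 they were 124 of 168. In replicate 2, 190 protein-coding gene bodies had a peak and 5 had more than 1. At −log10 q of at least 5 these were 8 and 2, the other gene being AT2G01008. At the depth of *SUC2::CO:CIT*, equal enrichment would give 188 and 182 fragments at the first summit, where 26 and 25 were needed, and 159 and 154 at the second. The nearest peak of either *SUC2::CO:CIT* library was at least 8715 bp away. Replicate 1 of *SUC2::CO:CIT aba1-6* was also deeper than replicate 2, with a background of 3.57 against 0.774 fragments, and had no peak at *AREB3*. The scaling is not given for that library. The sequences of 100 bases around both summits, chr3:21047014-21047113 and chr3:21047716-21047815 on the minus strand, are given to show their composition, with the same use of capitals.
AREB3 first summit: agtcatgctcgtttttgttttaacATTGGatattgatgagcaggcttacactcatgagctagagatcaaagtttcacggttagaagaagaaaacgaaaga
AREB3 second summit: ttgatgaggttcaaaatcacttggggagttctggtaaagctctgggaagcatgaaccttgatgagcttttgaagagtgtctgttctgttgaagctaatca
G and C made up 37% and 42% of these bases, above the 14% to 25% of the 4 upstream sites shown before. The *GBF4* peak, at chr1:1016240-1016415 in replicate 1 of *SUC2::CO:CIT aba1-6*, was a weak one. Its summit was at −1776 bp, in an intron of the neighbouring gene, and G and C made up 36% of the 100 bases around it. The peak had a fold enrichment of 2.99, 13 fragments over 3.68 and a −log10 q of 0.949, and it ranked 136 of 168. None of the 39 genes had peaks in both genotypes, but each mutant library had a peak at only 1 of them. Such peaks were rare throughout, at 0.765% and 1.24% of all protein-coding genes in *aba1-6* replicates 1 and 2.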

How the data were processed

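The data were macs2 peak lists of the 4 ChIP libraries, called by the authors per library against its own input, without pooling. Per the labels and methods, reads were trimmed with fastp, mapped with Bowtie2 to TAIR10 and also handled with FastQC, deepTools and ChIPseeker. Their versions are not given in the sources used here. The deposited fold enrichment is the ratio of fragments at the summit to background with a pseudocount of 1, which lowers it most in the shallowest library. Each peak also has a deposited −log10 p-value and a −log10 q-value from macs2, and the deposited score, derived from the p-value, was not used. The other deposited value is the summit's offset from the start of the peak. Summit fragments were solved for, from fold enrichment and p-value under a Poisson background, at all but 7 peaks.

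Windows were the gene body and 3000 bp upstream in the TAIR10.1 RefSeq annotation, whose sequence names are those of the lists. Shared peaks overlapped by at least 1 bp. Libraries were compared by an exact permutation test. The code was tested on simulated data, where 100% of 400 genes and of 1000 peaks were recovered. All 39 genes were accounted for, with values per library for those with a shared peak, named by their highest −log10 p in replicate 1. Sequences were those of the 6 genes with the highest lower −log10 q of the replicates among upstream summits, less *SnRK2.3*, whose interval runs into its first exon, and 1 other gene, whose interval is not reported here. Genes and lists were chosen with earlier results of these data known. The AT-richest stretch and the counts at *AREB3* were devised after values had been seen. Alternatives were other windows, overlaps, q thresholds and enrichment without pseudocount. Biological replicates were numbered in the labels, but nothing states that a number marks a shared batch. Python 3.11.15, numpy 2.4.6, pandas 2.3.3, scipy 1.17.1 and matplotlib 3.10.9 were used.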

Additional observations from a re-analysis of the deposited data

How the results depend on the processing

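The difference between genotypes kept its direction under every alternative run, from 9.5 genes with −log10 q of at least 10 to 25, and leaving out 1 library gave 24 to 26. The exact permutation test stayed at its smallest p. With the replicate number as a block (replicate block), a paired exact permutation test gave a difference of 25 with p = 0.5, the smallest that 2 pairs allow. Leaving out a *SUC2::CO:CIT* library left no overlap to ask for, and 25 to 27 genes had a peak in the other one. With the gene body alone, 14 and 15 genes had a peak in *SUC2::CO:CIT* replicates 1 and 2 and 0 in *aba1-6* replicate 1. Shared peaks were then found at 10 genes, 2 of them PP2Cs and 0 bZIPs. Requiring the summit inside the window left shared peaks at 18 genes, 5 receptors and 3 bZIPs among them. A reciprocal overlap of 50% left 17, with 4 receptors and 3 bZIPs. With −log10 q of at least 10, the 4 libraries had 11, 8, 0 and 0 genes with a peak. Shared peaks then remained at 7 genes, 3 receptors, 1 PP2C, 1 SnRK2, 2 bZIPs and 0 CYP707As. With −log10 q of at least 5, *aba1-6* replicate 1 had 0 and 2 PP2Cs had shared peaks. The *GBF4* peak was lost (0 genes) with 1000 bp upstream and without peaks whose summit lies in another gene, and the *AREB3* peaks (0 genes) with the upstream region alone. The median fold enrichment of the strongest shared peaks was 3.50, and 3.73 without the pseudocount, which moved 10 of 20 genes by more than their SD. With 1000 bp upstream, 2 of 18 genes moved, *PYL2* to 3.62 and *ABF1* to 2.27. Apart from the pseudocount, these changes follow from fewer bases or fewer peaks counted.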

Other observations

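Other genes around the pathway had shared peaks in *SUC2::CO:CIT* in numbers given here as counts beside the 47.5% of all protein-coding genes. Of 10 ABA synthesis genes, 6 (60%) had one. *ABA4*, needed to make neoxanthin, had fold enrichments of 4.20 and 4.73 in replicates 1 and 2, the aldehyde oxidase gene *AAO3* 4.52 and 3.97, and *NCED5*, which encodes a dioxygenase that makes the ABA precursor, 5.17 and 5.15, at −2974 and −2949 bp from its start. *NCED3*, the dioxygenase gene known from drought, had its strongest shared peak at −2822 and −2806 bp. Of 4 transporter genes, 3 had a shared peak, with 3.78 and 4.14 at the exporter gene *ABCG25*.

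All 3 further group A bZIP genes had one, *FD*, *FDP* and AT5G42910. *FD*, the partner of the florigen FT at the shoot apex, had 3.12 and 3.46, with summits at −203 and −409 bp. Among the 7 SnRK2 genes outside the subclass described above, 3 had a shared peak (42.9%), with summits of the strongest one at 2860 and 2892 bp from the start at *SnRK2.4*, 3183 and 2955 bp at *SnRK2.10* and 3249 and 3228 bp at *SnRK2.9*. Of 7 ABA-responsive target genes, *RD29A* and *COR15A* had one (28.6%), and of *ABI3* and *ABI4* the former. None of these genes had a peak in *SUC2::CO:CIT aba1-6*, where 0.765% and 1.24% of all protein-coding genes had one in replicates 1 and 2.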
